A study of Mus musculus with 6 samples.

Results

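The 43 beta-defensin genes of the mouse were taken from a gene expression table of the cerebral cortex, as the rows whose symbol starts with Defb followed by a digit, out of 55421 rows in all. The table held 6 libraries, 1 per mouse, from wild-type C57BL/6J males anesthetized with isoflurane, of which 3 were 6 months old (mice 10, 11 and 17) and 3 were 24 months old (mice 2, 4 and 5). Total RNA of the whole microdissected cortex was used, so a change in cell numbers and a change in RNA per cell cannot be told apart. Of the 43 genes, 42 were annotated as protein coding and 1, Defb44-ps, as a pseudogene. The libraries held 29495379 to 36494240 counts each. At this depth a count of 0 still allows up to 3 counts, which is 0.0822 to 0.102 counts per 1000000 counts of the library (CPM) depending on the library. The question asked of the family was which of its genes had reads in the young adult cortex, which had none, and whether either kind differed in the old cortex.

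Beta-defensins are small cationic secreted peptides of innate immunity, held together by disulfide bonds between conserved cysteines. They damage microbial membranes, and some attract immune cells through chemokine receptors. Most are known from epithelia such as skin, airway and kidney, and many members in rodents are made by the epididymis, where they coat sperm. Some, such as Defb1, are made constitutively, and others, such as Defb3, Defb4 and Defb14, are induced by microbial products and cytokines. The healthy cortex is not a tissue in which the family is known to be abundant.

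All of these genes are short, with 174 to 2425 exonic bp (median 373), and lie in groups on chromosomes 1, 2, 8 and 14 (GRCm38). The family signature, 6 cysteine codons of which the last 2 are adjacent, was found in frame in the annotated coding sequence of 38 of the 42 protein-coding genes, and in 37 of these the stretch held 6 such codons and no more. The search allowed 4 to 8, 3 to 5, 7 to 13 and 4 to 8 codons between successive cysteine codons, so these numbers depend on those limits. In 34 of the 37, 6 codons lay between the first 2 cysteine codons, and in 36, 9 codons lay between the third and the fourth. The stretch is shown for the 4 genes with enough counts to be tested, and for Defb35, whose stretch differs from that of Defb12 at 2 of 87 bases. Cysteine codons are in capitals, and the sequences are those of GENCODE vM21 transcripts (GRCm38), 5′ to 3′ on the coding strand, each within a single coding exon.
Defb1, chromosome 8, plus strand, chr8:21794475-21794567: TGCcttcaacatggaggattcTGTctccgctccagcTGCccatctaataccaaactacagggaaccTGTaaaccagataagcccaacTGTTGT
Defb12, chromosome 8, minus strand, chr8:19112672-19112758: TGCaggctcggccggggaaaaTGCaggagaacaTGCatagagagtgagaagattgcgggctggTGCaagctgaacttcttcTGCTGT
Defb35, chromosome 8, plus strand, chr8:21940702-21940788: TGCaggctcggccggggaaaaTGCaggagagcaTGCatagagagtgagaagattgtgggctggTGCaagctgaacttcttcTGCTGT
Defb30, chromosome 14, minus strand, chr14:63035971-63036057: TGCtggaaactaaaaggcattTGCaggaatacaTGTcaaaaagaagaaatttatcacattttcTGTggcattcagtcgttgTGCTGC
Defb42, chromosome 14, plus strand, chr14:63048269-63048355: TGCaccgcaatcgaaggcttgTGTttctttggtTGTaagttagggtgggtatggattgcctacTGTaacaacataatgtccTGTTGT

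Such likeness matters for counting, because a read that fits several genes cannot be given to 1 of them. After clipping, a read was at most 69 bases long. Sequences of 69 bases shared with the transcripts of another gene were found in 8 of the 43 genes, and in 7 of these the other gene was a beta-defensin or, for Defb15, the antisense gene Gm36879. The share was 26.0% in Defb15, 14.3% in Defb2, 13.7% in Defb11, 9.57% in Defb10 and under 3% in Defb4, Defb8, Defb9 and Defb42. In Defb42 the other gene was Rock2, which is not a beta-defensin, with 0.579% of the sequences shared. Whether any count of Defb42 came from Rock2 was not tested. Defb12 and Defb35 shared none. Defb15 was also the only member whose exons overlap those of another annotated gene, and no use of strand in the counting is stated, so its 4 counts cannot be assigned to 1 strand.

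The family was close to the detection limit at both ages, and its summed level was higher at 24 months. The 43 genes together had 20, 20 and 21 counts in the 6-month-old mice 10, 11 and 17, and 57, 78 and 49 counts in the 24-month-old mice 2, 4 and 5. Each old cortex was therefore above each young cortex, although each old library was less deep than each young one. Scaled with the TMM method of edgeR, the summed level was 0.623 ± 0.0381 CPM at 6 months and 1.82 ± 0.411 CPM at 24 months (SD, n = 3 mice each), a ratio of 2.92. The smallest value at 24 months, in mouse 5, was 1.44 CPM, and the largest at 6 months, in mouse 10, was 0.649 CPM. Scaled by library totals alone the ratio was 3.34, and on the deposited TPM values (counts scaled by gene length and library) it was 3.62, with 3.82 ± 0.427 TPM for the whole family at 6 months and 13.8 ± 2.39 TPM at 24 months. No test was run on these sums.

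**Figure D1:**
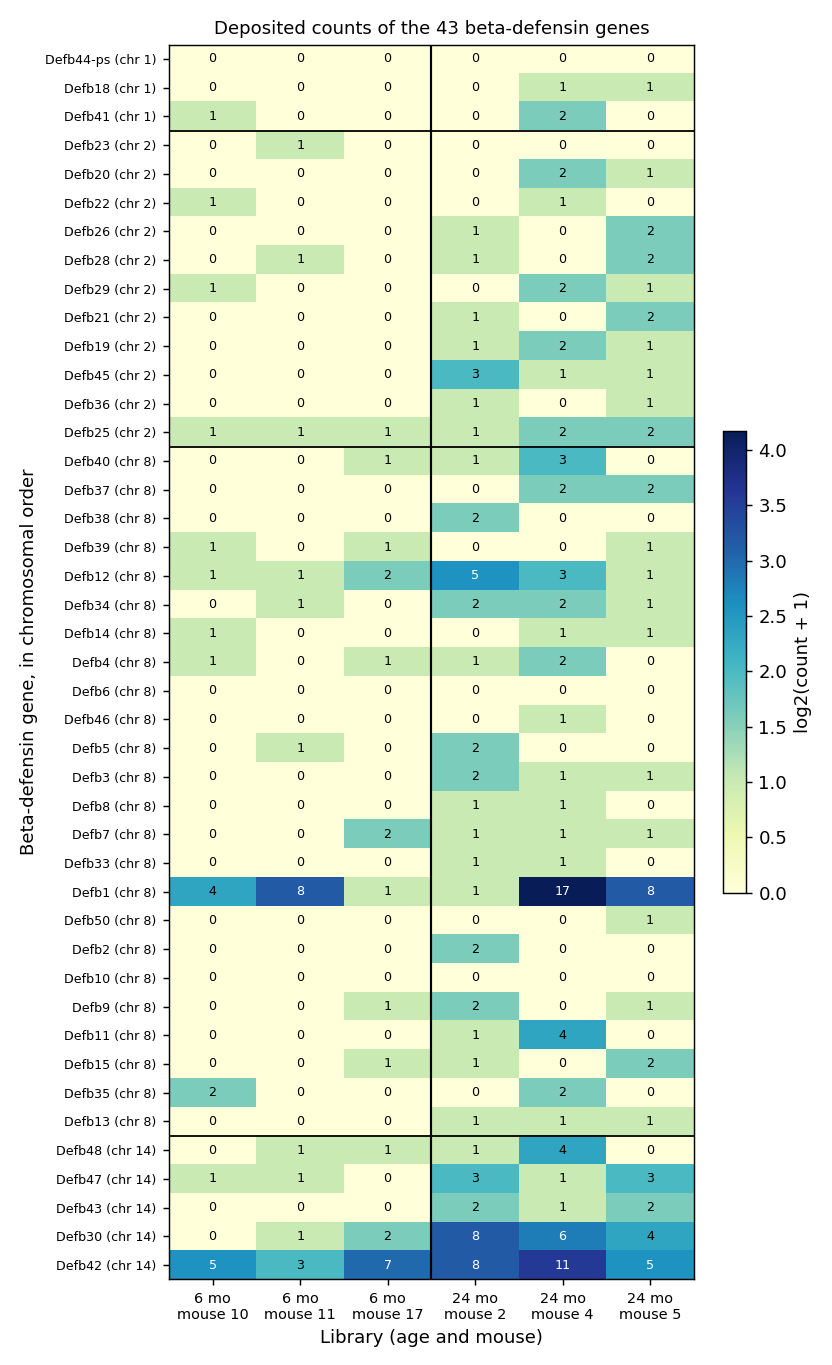
Deposited counts of each beta-defensin gene (rows, in chromosomal order, lines between chromosomes) in each library (columns, 6-month-old mice on the left and 24-month-old mice on the right), with colour as log2(count + 1). Most cells hold 0 at 6 months, and counts of 1 to 4 are scattered over many genes at 24 months, with Defb1, Defb12, Defb30 and Defb42 as the only rows that reach 5.

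More members were also counted at 24 months. Of the 43 genes, 12, 11 and 12 had at least 1 count in mice 10, 11 and 17, and 28, 28 and 26 in mice 2, 4 and 5. Only Defb1, Defb12, Defb25 and Defb42 were counted in every 6-month library, against 13 genes in every 24-month library. With all libraries thinned to the smallest total, the expected numbers were 9.27 to 10.9 at 6 months and 24.4 to 28.0 at 24 months. At least 3 counts were reached by 2, 2 and 1 genes at 6 months and by 5, 7 and 4 genes at 24 months. Over all 55421 genes, those with at least 1 count numbered 33974 to 35651 at 6 months and 40208 to 43561 at 24 months, and mouse 5 was the lowest of the old mice both for all genes and for the beta-defensins. The part of this difference between libraries in the family's difference was not tested.

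**Figure D2:**
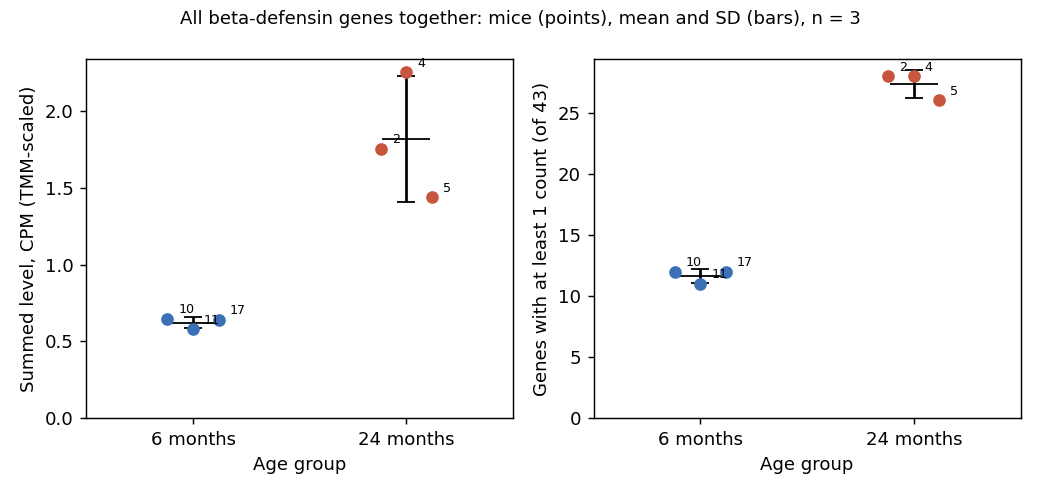
Summed level of the 43 genes in CPM (left) and number of the genes with at least 1 count (right) against age group, with a point per mouse labelled with its number and bars for the mean and SD of 3 mice. All 24-month points, 1.44 to 2.25 CPM and 26 to 28 genes, lie above all 6-month points, 0.579 to 0.649 CPM and 11 to 12 genes.

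Only 4 members, Defb1, Defb12, Defb30 and Defb42, had the 10 counts over the 6 libraries that were required for a test between the ages, and they held 45.7% of the family's 245 counts. All 4 were fitted higher at 24 months, as were 58.4% of all 32905 genes tested. None of the 4 passed a 1% false discovery rate (FDR), the threshold of the study, in edgeR's quasi-likelihood test, which was passed by 0.0% of all genes tested. The study names no test within edgeR, filtered genes in another way and reported genes past this threshold. Of the 4, 1, Defb30, passed 10% FDR here, where 10.0% of all genes were called higher. The median change of the 4 on the log2 scale was 1.00, beside 0.15 over all genes tested. Since a gene can reach 10 counts through the old libraries alone, the 4 genes are not a sample of the family. At an unadjusted p under 0.05, Defb30 alone was higher (17.6% of all genes tested), and the likelihood ratio and exact tests of edgeR and DESeq2 each called 0 of the 4 at 1% FDR (the likelihood ratio test called 4.41% of all genes higher).

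Defb30 (ENSMUSG00000075571.8, chromosome 14 from 63034087 to 63049960, minus strand) had the smallest p of the 4. It reached the minimum of 10 counts only through the old mice, the group in which it was high, so its test does not stand for the family. It had 0, 1 and 2 counts in mice 10, 11 and 17, and 8, 6 and 4 counts in mice 2, 4 and 5. The ages did not overlap, which held for 1 of the 4 members tested and for 20.0% of all genes tested. The level was 0.0300 ± 0.0305 CPM at 6 months and 0.179 ± 0.0647 CPM at 24 months (SD, n = 3). The fitted difference was 2.41 ± 0.78 on the log2 scale (± standard error), with adjusted p = 0.0827 by quasi-likelihood, and lay 2.26 above the median of all genes tested. Pooled over mice, the ratio of 18 to 3 counts relative to the library totals was 6.64 (95% exact interval of the counts 1.94 to 35.2, counting error only). The call at 10% FDR was lost without mouse 10, 11, 17, 2 or 4 (adjusted p = 0.102 to 0.212 in the same test) and held without mouse 5. It was also lost with DESeq2 (adjusted p = 0.166) and with no minimum on counts (adjusted p = 0.103 in the quasi-likelihood test). The call held in the likelihood ratio test (adjusted p = 0.017) and the exact test (adjusted p = 0.032) of edgeR. In the quasi-likelihood test it held with DESeq2 size factors and with library totals (adjusted p = 0.084 for each).

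Defb1, the constitutive epithelial beta-defensin, had the highest level of the family. Its counts were 4, 8 and 1 in mice 10, 11 and 17, and 1, 17 and 8 in mice 2, 4 and 5. The 24-month-old mouse 2 was thus as low as the lowest young mouse, and the ages overlapped. The mean TPM was 0.528 ± 0.409 at 6 months and 1.10 ± 1.01 at 24 months (SD, n = 3), and the fitted log2 difference of 0.93 ± 0.82 (standard error, with adjusted p = 0.458 by quasi-likelihood in edgeR) lay within the spread between mice. It was 0.07 without mouse 4 and 1.68 without mouse 11. Defb1 (ENSMUSG00000044748.8) lies on chromosome 8 from 21776599 to 21795185. By mean TPM it ranked 20028 among all genes, and no member reached a mean of 1 TPM over the 6 libraries, a level exceeded by 18904 genes.

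Defb42 (ENSMUSG00000054763.9) is the longest member and lies beside Defb30 on the opposite strand of chromosome 14, from 63046991 to 63058149, with overlapping gene bodies but no shared exonic base. Its counts were 5, 3 and 7 in the young mice against 8, 11 and 5 in the old mice. The ranges overlapped, and the fitted log2 difference was 0.62 ± 0.51 (adjusted p = 0.426 by quasi-likelihood in edgeR). Defb12 (ENSMUSG00000043787.7, chromosome 8 from 19111931 to 19114839) had 1, 1 and 2 counts against 5, 3 and 1, a fitted log2 difference of 1.06 ± 0.82 (adjusted p = 0.395 by the same test), and mouse 5 was no higher than mice 10 and 11. For Defb1, Defb42 and Defb12 no difference was detected with 3 mice per age. The intervals of the pooled count ratios cover counting error and not the spread between mice. They were wide, 1.10 to 4.69 for Defb1, 0.892 to 3.63 for Defb42 and 0.695 to 11.1 for Defb12. The interval of Defb1 lay above 1, but its mice of the 2 ages overlapped.

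**Figure D3:**
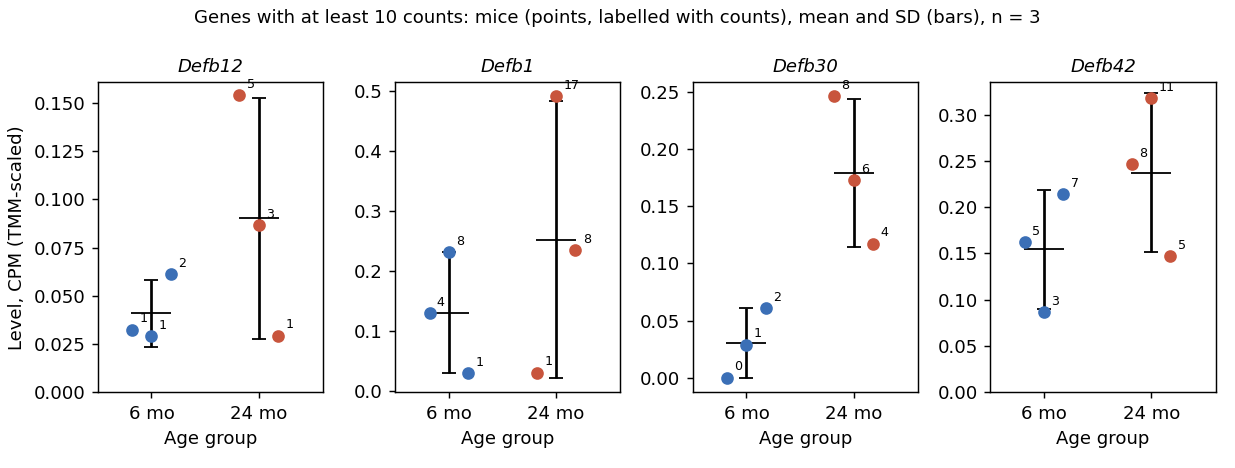
Level in CPM of Defb12, Defb1, Defb30 and Defb42 against age group, with a point per mouse labelled with its count and bars for the mean and SD of 3 mice, and a separate vertical scale for each gene. The ages are apart for Defb30 (0 to 2 counts against 4 to 8) and overlap for the other genes.

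The 4 genes tested were also the 4 longest. They had 872 to 2425 exonic bp, and no other member had more than 690. Over the 43 genes, Pearson's r between exonic length and total counts was 0.80 and Spearman's rho 0.33, and over the 39 other genes they were 0.03 and 0.10. These are descriptions across genes of the same 6 libraries, and genes are not independent replicates. Per exonic kb, the whole family had 3.003 counts summed over the 6-month libraries and 9.06 over the 24-month libraries. Defb42 had 6.19 and 9.90 counts per kb, Defb12 had 3.99 and 8.97, and Defb30 had 2.25 and 13.5. Defb1 had the most at both ages, with 14.9 and 29.8 counts per kb, followed by Defb25 with 10.2 at 6 months and by Defb34 with 20.3 at 24 months, each on 3 to 5 counts. The 39 genes not tested had 1.77 and 7.29.

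**Figure D4:**
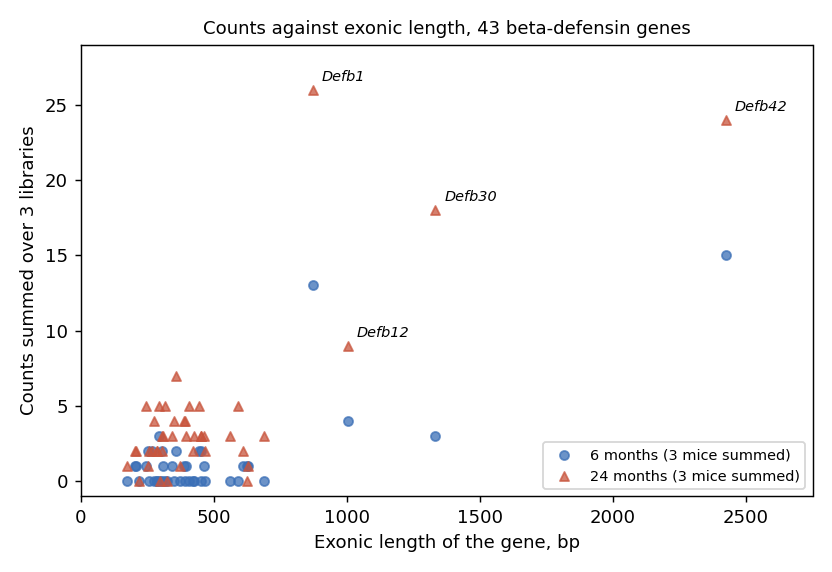
Counts summed over the 3 libraries of each age against exonic length in bp, with a point per beta-defensin gene and age (circles for 6 months, triangles for 24 months). Defb1, Defb12, Defb30 and Defb42 lie to the right of the 39 other genes, which have at most 690 exonic bp and at most 7 counts per age.

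The 39 members not tested had at most 4 counts in any library and at most 9 over all 6. Summed, they had 10, 7 and 9 counts in mice 10, 11 and 17, and 35, 41 and 31 counts in mice 2, 4 and 5. The total was higher at 24 months for 32 of them, equal for 2 and lower for 2, Defb23 and Defb39, and the 3 others, Defb6, Defb10 and Defb44-ps, had no count in any library. In a fit with no minimum on counts, 36 of the 40 genes with a count were fitted higher at 24 months, beside 67.3% of the 49160 genes in that fit. Of the 40, 18 had no count at 6 months and could only be fitted higher, so this number is no test of the family. At an unadjusted p under 0.05, 3 of the 40 were higher, Defb30, Defb43 and Defb45 (15.4% of all genes in that fit were higher by this rule). Defb43 and Defb45 had no count at 6 months. At 10% FDR 0 passed (5.36% of all genes were higher by it, smallest adjusted p = 0.103, quasi-likelihood test). Defb47 (9 counts), Defb25 (8 counts) and Defb48 (7 counts) had the largest totals among the 39. By mean TPM over both ages the family was led by Defb1 at 0.815, Defb25 at 0.503, Defb47 at 0.471, Defb34 at 0.453, Defb7 at 0.302 and Defb42 at 0.298. Neighbours in this order differed by less than the larger SD between mice of 1 age, and the levels of Defb25, Defb47, Defb34 and Defb7 rest on 5 to 9 counts each. The order below Defb1 depended on age. At 6 months Defb25 (0.368), Defb39 (0.292) and Defb35 (0.283) followed Defb1 by mean TPM, and at 24 months Defb34 (0.768), Defb47 (0.741) and Defb25 (0.638) did.

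Among the inducible members, Defb4 had 1, 0 and 1 counts in the young mice against 1, 2 and 0 in the old mice, Defb14 had 1, 0 and 0 against 0, 1 and 1, and Defb3 had 0 in each young mouse against 2, 1 and 1. No single gene of these 3 was above 2 counts in any library. The members Defb37, Defb38, Defb39 and Defb40, known from the epididymis, had between 0 and 3 counts in each library. Defb22, whose product coats sperm, had 1 count in the young mouse 10 and 1 in the old mouse 4.

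At 6 months, 5 members were counted at least 3 times over the 3 libraries, 17 had 1 or 2 counts and 21 were not counted. The 5 were Defb1, Defb12, Defb25, Defb30 and Defb42, which together had 11, 14 and 13 counts in the young mice and 23, 39 and 20 in the old mice. The 17 weakly counted genes had 9, 6 and 8 counts against 15, 21 and 13. The 21 silent genes had 19, 18 and 16 counts in mice 2, 4 and 5, spread over 18 genes of at most 4 counts in any library. These 3 groups were cut on the 6-month counts, and the limits between them lie at 0 to 3 counts, which could change if fractional counts were rounded before deposit. A higher level of the silent genes at 24 months is partly fixed by the choice and is not a test. Genes without a count in 2 of the young libraries were therefore also read in the third. The 26 genes so chosen for mouse 10 had 6 counts there, the 25 for mouse 11 had 4, and the 25 for mouse 17 had 5, and the same genes had 18 to 26 counts in each old mouse. In CPM the mean of the old mice was 3.20, 5.40 and 4.29 times the young level so read. Of the silent genes, Defb3, Defb11, Defb19, Defb37, Defb43 and Defb45 had 4 or 5 counts over the old libraries. They were picked by these counts, and no fold is given for them.

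The summed level was higher at 24 months in each chromosomal group. The 24 genes on chromosome 8 had 10, 11 and 10 counts in the young mice against 26, 42 and 21 in the old mice, a ratio of 2.78 in CPM. The 5 genes on chromosome 14 had 6, 6 and 10 against 22, 23 and 14 (ratio 2.60), and the 11 genes on chromosome 2 had 3, 3 and 1 against 9, 10 and 13 (ratio 4.42). On chromosome 1, the 3 genes had 1 count at 6 months and 4 at 24 months, and 24-month-old mouse 2 had none. On chromosomes 2, 8 and 14 each old mouse was above each young mouse. Differences between the groups were not tested.

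Other gene families that are near silent in the cortex were read from the same libraries in the same unit. Per exonic kb, the beta-defensins stood at 0.0307 ± 0.00187 CPM in the young mice and 0.0894 ± 0.0202 CPM in the old mice (SD, n = 3). The 1413 olfactory receptor genes had 0.0247 ± 0.00111 and 0.0738 ± 0.0173, the 359 vomeronasal receptor genes 0.0208 ± 0.00200 and 0.0616 ± 0.0143, and the 58 keratin-associated protein genes 0.0150 ± 0.00287 and 0.0486 ± 0.0188. In each of these families, all old mice lay above all young mice, with ratios of summed CPM of 2.92 for the beta-defensins, 2.98, 2.96 and 3.24. The 28 alpha-defensin genes, which in the mouse are made by the Paneth cells of the intestine, had 2, 0 and 0 counts in the young mice and 11, 9 and 0 in the old mice, so that the ages overlapped, and 16 of them had no count. Many are near-identical copies of each other, so these counts are uncertain. Differences between the families were not tested.

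**Figure D5:**
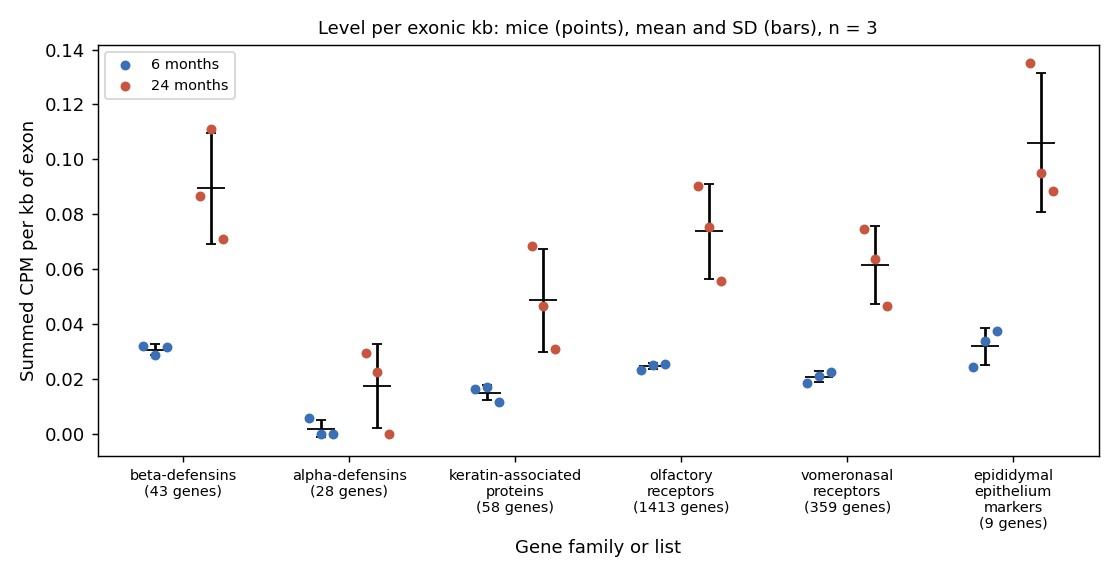
Summed CPM per kb of exon for 5 gene families and a list of epididymal marker genes, with a point per mouse, bars for the mean and SD of 3 mice, and colour for age. The beta-defensins run from 0.0285 to 0.0319 in young mice and from 0.0709 to 0.111 in old mice, and each list but the alpha-defensins has its 24-month points above its 6-month points.

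Of 18 other antimicrobial genes, 15 were tested, and 4 were higher at 10% FDR and 0 lower (10.0% and 8.33% of all genes tested) and a median change of 0.77 on the log2 scale. The 4 were Lyz2, the lysozyme of macrophages, Mpo, the myeloperoxidase of neutrophils, Bpi, a protein that binds bacterial lipopolysaccharide, and Reg3g, an intestinal antimicrobial lectin. Lyz2 was by far the most abundant, with 8.98 ± 1.98 CPM at 6 months and 16.3 ± 4.24 CPM at 24 months (SD, n = 3), a log2 fold change of 0.86 (adjusted p = 0.0565, quasi-likelihood test). The other genes of the 4, Mpo, Bpi and Reg3g, had at most 18 counts in any library. They reached the minimum of 10 counts only through the old mice, in which they were high, so their calls do not stand for the list. Camp, the cathelicidin precursor, had a log2 fold change of 0.03. Of 9 receptors linked to defensins, all tested, 2 were higher and 1 lower at 10% FDR. Ccr2, a chemokine receptor of monocytes, rose by 1.16 on the log2 scale, and Mrgprb2, a mast cell receptor, rose from 1, 0 and 0 to 7, 4 and 3 counts, whereas Mc4r, the melanocortin receptor of appetite control, fell by 0.87. Mrgprb2 also reached the minimum of 10 counts only through the old mice. Ccr6, the chemokine receptor through which several beta-defensins act, had 2, 1 and 4 counts against 7, 11 and 5 (adjusted p = 0.114, same test), and Egfr had the most counts, with a log2 fold change of -0.14. Of 10 upstream cytokines and signalling genes, 9 were tested, and 1 was lower at 10% FDR and 0 higher. It was Il17ra, the receptor of the defensin inducer IL-17A, which fell by 0.44 on the log2 scale and had the most counts of the list. The defensin-like epididymal genes Spag11a and Spag11b had 0, 2 and 0 against 0, 1 and 0 counts, and 2, 1 and 1 against 4, 6 and 3 counts (adjusted p = 0.154 for Spag11b, same test).

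Markers of other cells were read beside the family. Snap25, a synaptic gene that marks neurons and so the labelled tissue, had 5159 ± 549 CPM in the young mice and 4152 ± 577 CPM in the old mice (SD, n = 3, adjusted p = 0.117 by quasi-likelihood in edgeR). The 6 markers of surface epithelium, the main source of Defb1 in other organs, had 2.34, 2.90 and 5.22 summed CPM in mice 10, 11 and 17, and 2.28, 4.97 and 3.23 in mice 2, 4 and 5, so that these sums overlapped. Most of each sum was Cdh1, with 57, 89 and 156 counts against 38, 137 and 93. Cdh1 was fitted lower at 24 months and the 5 other markers higher, as were 58.4% of all genes tested. The median log2 change of the 6 was 0.67, beside 0.15 over all genes tested. Of these 6 genes, Krt8, a keratin of simple epithelia, was higher at 10% FDR (10.0% of all genes tested), with 0, 0 and 1 counts against 9, 10 and 3. Krt8 reached the minimum of 10 counts only through the old mice. The 7 neutrophil markers had 2.08, 2.72 and 3.02 summed CPM against 1.66, 5.00 and 4.41, with overlapping ages. All 7 were fitted higher, with log2 changes from 0.03 for Camp to 2.6 for Mpo and a median of 0.75. At 10% FDR 1 of the 7, Mpo, was higher, and it reached the minimum of 10 counts only through the old mice.

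Markers of the choroid plexus and meninges, tissues that border the cortex, had 18.3 to 44.8 and 22.7 to 56.5 summed CPM in the young mice and 21.2 to 44.6 and 22.6 to 63.0 in the old mice. At 10% FDR, 0 of 6 and 0 of 5 were called in either direction (10.0% of all genes tested were higher and 8.33% lower). The 9 epididymal markers, genes of a tissue that was not sampled, had 11, 17 and 18 counts in the young mice and 64, 48 and 44 in the old mice, a ratio of 3.33 in CPM. Of the 5 of them tested, 2 were higher at 10% FDR (10.0% of all genes tested), Adam7 (log2 fold change 2.49) and Gpx5 (log2 fold change 2.10). Adam7 and Gpx5 reached the minimum of 10 counts only through the old mice, in which they were high. No marker in these lists was without a count in all libraries. The part of any of these genes or cells in the difference of the beta-defensins was not tested.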

How the data were processed

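RNA was measured in 6 cortex libraries, 1 per mouse. Per the study's methods, the authors prepared libraries from 10 ng of total RNA with a low-input kit, sequenced single 75-base reads, clipped 3 bases at each end (Trim Galore 0.6.4), aligned them to GRCm38 (STAR 2.7.3a) and assigned them to exons (featureCounts of Subread 2.0.0) with fractional counting of reads that fit several places and no strand option stated. The deposited count values are whole numbers, and whether fractions were rounded is not given in the sources used here. Classes that rest on counts of 0 to 2 share this doubt, and the deposited TPM values were made by the authors from counts and gene lengths. TPM was used for levels between genes, counts for tests.

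The 32905 genes that reached 10 counts, summed over libraries, were compared between ages with TMM factors and the quasi-likelihood test of edgeR 4.0.16, with Benjamini-Hochberg adjustment over all of them. CPM are TMM-scaled. The scripts were tested on simulated data, with changes placed only in genes of a higher level than any beta-defensin. How a change at counts as low as those of the family would be called was therefore not tested. Alternatives were the likelihood ratio and exact tests, DESeq2 1.42.0, other scalings, other count minimums and leaving out each mouse. Errors are SD over mice. Intervals and floors cover counting error only. Each of the 4 members with 10 counts, the 6 highest mean TPM, the 5 largest totals and the 5 smallest p (4 existed) were named. From the other lists, genes past 10% FDR and the one with the most counts were named, and Camp, Ccr6, Spag11a and Spag11b were chosen after their values were seen. Members and lists were chosen with earlier results of these data known. Part of the neuron marker list is not reported here.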

Additional observations from a re-analysis of the deposited data

How the results depend on the processing

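All 4 members tested were fitted higher at 24 months under every alternative fit run on them (47 of 47 fits). These fits reuse the same libraries, so they are not separate evidence. In the main fit, 58.4% of all genes tested were fitted higher. The log2 difference of Defb1 was 0.07 without mouse 4. The number past 10% FDR was 1, and stayed 1 with the likelihood ratio and exact tests, DESeq2 size factors and library totals. It was 0 with DESeq2 and 0 with no minimum on counts. When each mouse was left out it was 0 to 1, and 1 only without the 24-month-old mouse 5. At an unadjusted p under 0.05 the number was 1, and 3 with no minimum on counts. With the count filter of edgeR (filterByExpr) no member was tested. The ratio of the summed level, 2.92, was 3.62 on deposited TPM, 3.96 without the 4 members tested (an alternative chosen after seeing the data) and 2.57 to 3.22 when each mouse was left out. The ratio of the number of members counted, 2.34, was 3.20 for members with at least 3 counts and 2.57 in thinned libraries. The summed level at 24 months of the 21 members silent at 6 months was 0.525 ± 0.0578 CPM. For the 26, 25 and 25 members silent in 2 of the young libraries it was 0.622, 0.625 and 0.654 CPM. These larger sets include the 21 members, so their sums could not be lower. Library totals in place of TMM moved the median log2 fold change of all genes by 0.19. No paired analysis was possible because the ages share no replicate number. The 3 mice per age and counts of 0 to 17 limit what could be detected.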
